A study of Danio rerio with 4 samples.

Results

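The Hippo and Yap pathway genes described here are yap1, wwtr1, tead1a, tead1b, lats1, lats2, amotl2a, ccn1, ccn2a and ccn2b, which are 10 of the 32520 zebrafish gene IDs counted. They were listed by name and matched to Ensembl gene IDs by symbol. A total of 7 matched directly, and 3 (tead1b, amotl2a and ccn2a) matched an entry whose symbol, TEAD1, AMOTL2 or CCN2, lacks the copy letter. RNA was sequenced from hearts of adult zebrafish of the Ekkwill strain, in 4 libraries that crossed genotype with injury. Wild-type fish (LEN+/+) and fish homozygous for a deletion of LEN (LEN[delta]/[delta]), a regeneration enhancer linked to leptin b, were each sampled without injury and 3 days after part of the heart was amputated (3 dpa). Every group is a single library, how many hearts went into it is not stated in the labels, and no difference below has a replicate check or a p-value.

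The Hippo pathway is a kinase cascade that restrains growth. The Lats kinases phosphorylate the coactivators Yap1 and Wwtr1 (also called Taz) and keep them out of the nucleus, and angiomotin-like proteins bind and retain them as well. Unphosphorylated Yap1 and Wwtr1 act with Tead transcription factors, and CCN genes, which encode secreted matricellular proteins, are widely used as a readout of that activity. In mouse heart, Yap is known to promote cardiomyocyte proliferation. Transcript counts do not report phosphorylation or nuclear location, through which the pathway is mainly regulated.

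Total counts ranged from 31618442 to 35026983 per library. The transcripts were those of heart, since the myosin light chain gene MYL7 had between 245739 and 382933 counts in each library. The count of lepb was 78 in wild type at 3 dpa and 2 in the other libraries. The wild-type uninjured library stood apart by liver transcripts: a list of 14 hepatocyte genes took 0.184% of its counts and 0.0497 to 0.0751% of the others. Most of the share in the others came from RBP4 and tfa. These had 14631 and 1151 counts in the uninjured mutant, 9008 and 14879 in wild type at 3 dpa, and 9755 and 16268 in the mutant at 3 dpa. The 13 genes with a mitochondrial symbol took 16.1 and 16.7% of the counts in wild-type and mutant uninjured hearts and 11.3 and 11.9% at 3 dpa. Levels below are CPM values after TMM scaling (scaled CPM), with Wilson 95% intervals that cover counting error only. The total of each library was multiplied by its TMM factor before counts were divided by it. That factor was 0.910 in uninjured wild type, 0.898 in the uninjured mutant, 1.095 in wild type at 3 dpa and 1.118 in the mutant at 3 dpa. Because gene length was not given, these levels compare libraries and not genes. A difference is called past the threshold when it is at least 2-fold (a log2 ratio of 1) and its 95% counting interval excludes equal abundance.

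Of the coactivators, yap1 had nearly the same level in both genotypes and wwtr1 did not. The level of yap1 (ENSDARG00000068401) was 169 scaled CPM in uninjured wild type (95% interval, 164 to 173), 167 in the uninjured mutant (162 to 172), 138 in wild type at 3 dpa (134 to 142) and 145 in the mutant at 3 dpa (141 to 149). The uninjured libraries were the higher ones under TMM, and within a state the genotypes lay within 1.05-fold. Injury gave yap1 log2 ratios of -0.29 (wild type) and -0.21 (mutant), of which the latter took either sign under different scalings (-0.33 to 0.11). The level of wwtr1 (ENSDARG00000067719) was 22.5 scaled CPM in uninjured wild type (20.9 to 24.3), 44.1 in the uninjured mutant (41.8 to 46.6), 21.4 in wild type at 3 dpa (20.0 to 22.9) and 34.7 in the mutant at 3 dpa (32.9 to 36.6). Both mutant libraries lay above both wild-type libraries, whose own intervals overlapped. The log2 ratio of wwtr1, mutant over wild type, was 0.97 in uninjured hearts (95% counting interval, 0.83 to 1.11), just under the threshold, and 0.70 at 3 dpa (0.57 to 0.83). Its injury log2 ratio was -0.08 in wild-type hearts (-0.23 to 0.07) and -0.35 in mutant hearts (-0.46 to -0.24), and the former took either sign under different scalings.

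The 2 tead1 genes encode Tead1, the DNA-binding partner of both coactivators, and both were somewhat higher in the mutant libraries. The level of tead1a (ENSDARG00000028159) was 2.99 scaled CPM in uninjured wild type, 4.36 in the uninjured mutant, 3.86 in wild type at 3 dpa and 5.64 in the mutant at 3 dpa, from 86 to 219 counts. Set against wild type, tead1a in the mutant had a log2 ratio of 0.54 both without injury (0.14 to 0.96) and at 3 dpa (0.24 to 0.86). The level of tead1b (ENSDARG00000059483) was 26.3 scaled CPM in uninjured wild type, 31.2 in the uninjured mutant, 24.5 in wild type at 3 dpa and 30.9 in the mutant at 3 dpa. Both mutant libraries again lay above both wild-type libraries, with genotype log2 ratios of 0.25 before injury (0.11 to 0.39) and 0.33 at 3 dpa (0.21 to 0.46). Neither gene passed the threshold in any contrast. The injury log2 ratios of tead1b were -0.10 in wild type and -0.01 in the mutant, with intervals that included 0 and a sign that changed with the scaling.

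The inhibitory genes were lats1 and lats2, which encode the kinases that phosphorylate Yap1 and Wwtr1, and amotl2a, which encodes an angiomotin-like protein and is itself a known Yap target. The level of lats1 (ENSDARG00000003751) was 26.8 scaled CPM in uninjured wild type, 27.3 in the uninjured mutant, 21.6 in wild type at 3 dpa and 19.0 in the mutant at 3 dpa. The uninjured pair did not differ beyond counting error, and under TMM both lay above the 3 dpa pair. Over the 5 scalings the injury log2 ratio of lats1 ran from -0.42 to -0.04 in wild type and from -0.64 to -0.20 in the mutant. The level of lats2 (ENSDARG00000078864) was 26.7 scaled CPM in uninjured wild type, 44.0 in the uninjured mutant, 26.7 in wild type at 3 dpa and 34.1 in the mutant at 3 dpa. As for wwtr1, the order was mutant uninjured, mutant 3 dpa and then the 2 wild-type libraries, whose intervals overlapped. The genotype log2 ratio of lats2 was 0.72 before injury (0.59 to 0.85) and 0.35 at 3 dpa (0.23 to 0.47), while that of lats1 was 0.02 (-0.12 to 0.17) and -0.18 (-0.33 to -0.04).

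The level of amotl2a (ENSDARG00000061923) was 130.5 scaled CPM in uninjured wild type (126 to 135), 129 in the uninjured mutant (125 to 133), 82.3 in wild type at 3 dpa (79.5 to 85.2) and 85.3 in the mutant at 3 dpa (82.5 to 88.3). Both uninjured libraries lay above both injured libraries. The injury log2 ratio of amotl2a was -0.66 in wild-type hearts (-0.73 to -0.60) and -0.60 in mutant hearts (-0.67 to -0.53), short of the threshold, and its genotype intervals included 0 in both states. Among the 10 genes it had the lowest injury ratio in both genotypes. Cell type markers moved beside it: the summed level of the 14 cardiomyocyte marker genes went from 44857 to 26015 scaled CPM in wild type and from 48322 to 26264 in the mutant, and that of the 7 endothelial and endocardial marker genes from 1011 to 780 and from 1194 to 840.0. Of these, 1 and 5 of the 11 tested cardiomyocyte genes passed the threshold downward in wild type and in the mutant. Over all tested genes, the downward shares were 6.76% and 5.62%. Injury log2 ratios lay below 0 for 9 of the 11 in each genotype. The others were nppa (0.001 in wild type and 0.20 in the mutant) and nppb (0.02 and 0.65). Of the 7 endothelial and endocardial genes, 0 passed the threshold in either genotype. Their injury log2 ratios lay below 0, except that of NFATC1 in wild type (0.09). The part of these cell types in the ratios of amotl2a was not tested. In whole hearts, fewer cells of a type and less RNA per cell cannot be told apart.

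Of the 3 CCN genes, ccn1 and ccn2a held the only differences past the threshold among the 10 genes under TMM scaling, and ccn2b was close to the expression filter. The level of ccn1 (ENSDARG00000023062) was 119.8 scaled CPM in uninjured wild type (116 to 124), 56.3 in the uninjured mutant (53.6 to 59.1), 136 in wild type at 3 dpa (133 to 140.0) and 103 in the mutant at 3 dpa (99.8 to 106). None of these intervals overlapped, and the mutant uninjured library was the lowest. Without injury, the genotype log2 ratio of ccn1 was -1.09 (-1.18 to -1.004), past the threshold, so that ccn1 was 2.13-fold lower in the mutant. At 3 dpa the log2 ratio was -0.40 (-0.46 to -0.34), short of it. The injury log2 ratio was 0.19 in wild-type hearts (0.12 to 0.25) and 0.87 in mutant hearts (0.79 to 0.95), and the difference of these injury responses, mutant minus wild type, was 0.68 (0.58 to 0.79). It shares all of its libraries with the genotype contrasts and is not separate evidence from them.

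The level of ccn2a (ENSDARG00000042934) was 103 scaled CPM in uninjured wild type (99.7 to 107), 60.1 in the uninjured mutant (57.4 to 63.1), 165 in wild type at 3 dpa (161 to 169) and 136 in the mutant at 3 dpa (133 to 139.9). The order differed from that of ccn1 in that both injured libraries lay above both uninjured ones. The gene rose with injury past the threshold in the mutant, by 1.18 on the log2 scale (1.1003 to 1.26), and the wild-type value of 0.67 (0.61 to 0.74) stayed below it. The difference between these was 0.51 (0.41 to 0.61), short of the threshold. Between the genotypes its log2 ratio was -0.78 before injury (-0.87 to -0.69) and -0.27 at 3 dpa (-0.33 to -0.22). The third gene, ccn2b (ENSDARG00000104292), had counts of 31 in wild type and 32 in the mutant before injury and 52 and 48 after it, or 1.08, 1.12, 1.36 and 1.24 scaled CPM. All 4 intervals of ccn2b overlapped, and a difference was not detectable at this depth.

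**Figure D1:**
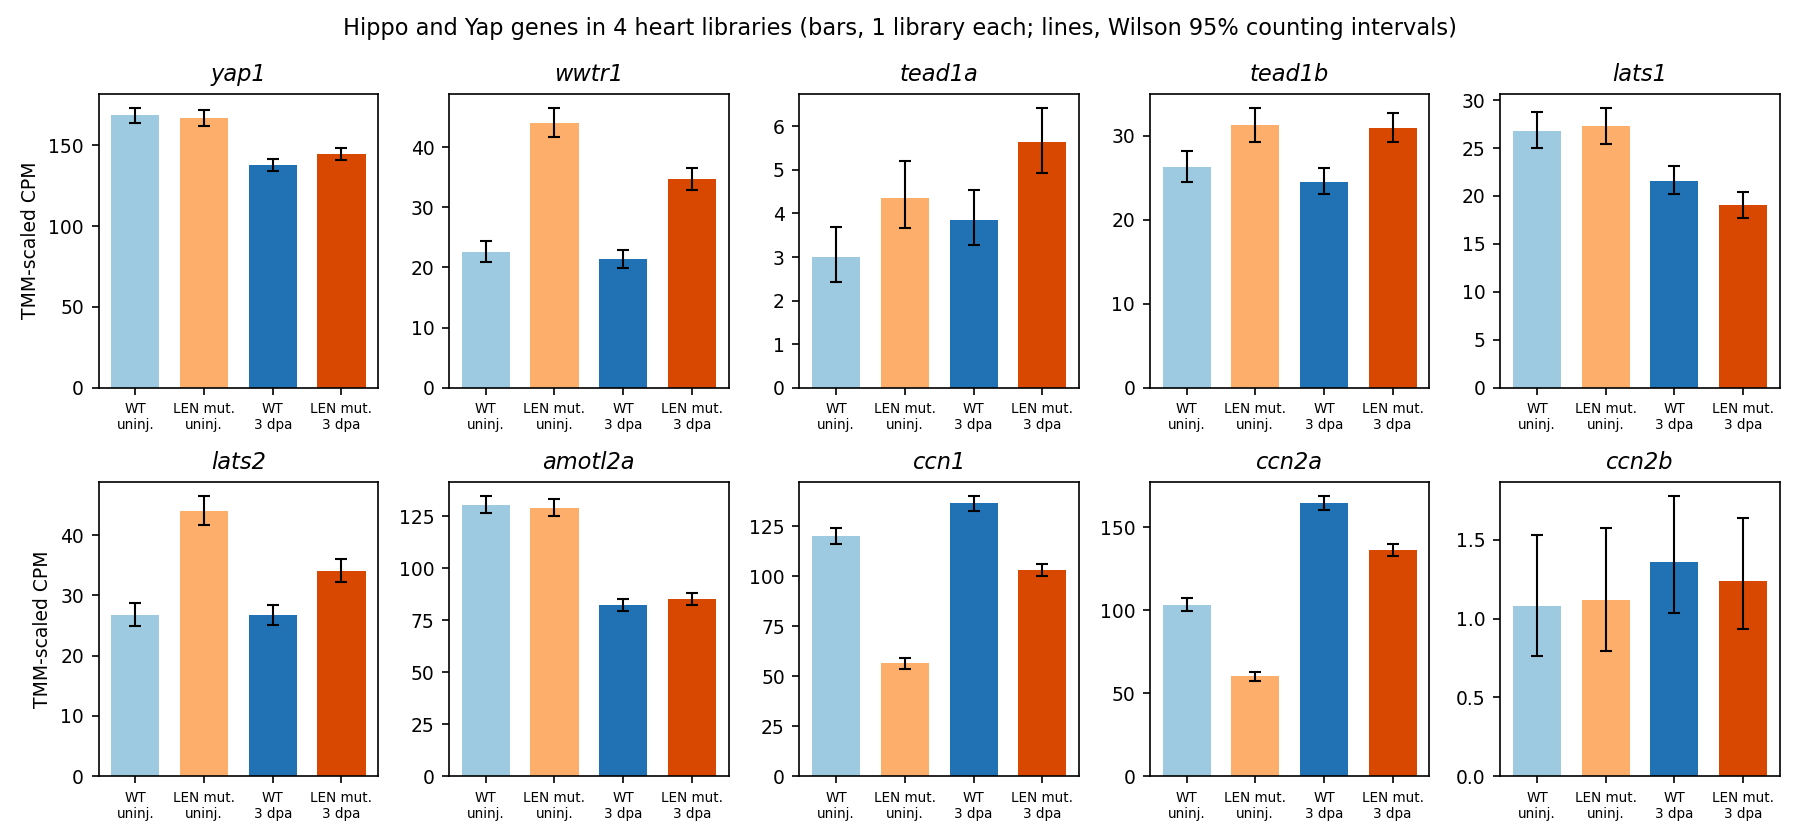
TMM-scaled CPM (y axis, linear from 0, with its own range in each panel) of the 10 Hippo and Yap genes in the 4 libraries (x axis); each bar is 1 library and each line its Wilson 95% counting interval. The mutant uninjured library is the highest for wwtr1 (44.1) and lats2 (44.0) and the lowest for ccn1 (56.3) and ccn2a (60.1), whereas amotl2a, and under this scaling yap1, separate by injury.

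Counted over contrasts, few of the 10 genes passed the threshold, and all 10 had passed the expression filter. For injury in wild type, 0 of the 10 passed, against 20.0% of the 16509 genes tested. For injury in the mutant 1 passed (ccn2a, higher), against 20.3% in either direction and 14.7% upward. The genotype contrast in uninjured hearts gave 1 (ccn1, lower), against 8.01% in either direction and 4.09% downward. At 3 dpa the genotype contrast gave 0, against 3.00% (2.24% upward and 0.769% downward), and the difference of injury responses gave 0, against 5.21% (3.80% upward and 1.41% downward). At most 1 of the 10 genes thus passed in any of the 5 comparisons. The median log2 ratio of the 10 genes was -0.04 and -0.11 for injury in wild type and in the mutant, and 0.04 and 0.06 for genotype in uninjured hearts and at 3 dpa. Over all tested genes these medians were 0.03, 0.04, -0.03 and 0.00. The 10 genes did not move in one direction: counting intervals lay above 0 for 2 and below it for 3 genes in wild-type injury, 3 and 5 in mutant injury, 4 and 2 between uninjured genotypes, and 5 and 3 between genotypes at 3 dpa.

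Scaling mattered for the injury ratios. Scaling by total counts moved the median injury log2 ratio over all genes tested to 0.30 (wild type) and 0.36 (mutant), ccn1 had a log2 ratio of 1.18 for injury in the mutant, and 2 of the 10 genes passed there. Of all genes called, 83.3% (wild type) and 91.0% (mutant) were then higher after injury, where TMM gave 66.2% and 72.3% and upper-quartile factors gave 56.9% and 61.4%. The genotype ratios of the 10 genes kept their sign under all 5 scalings compared.

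**Figure D2:**
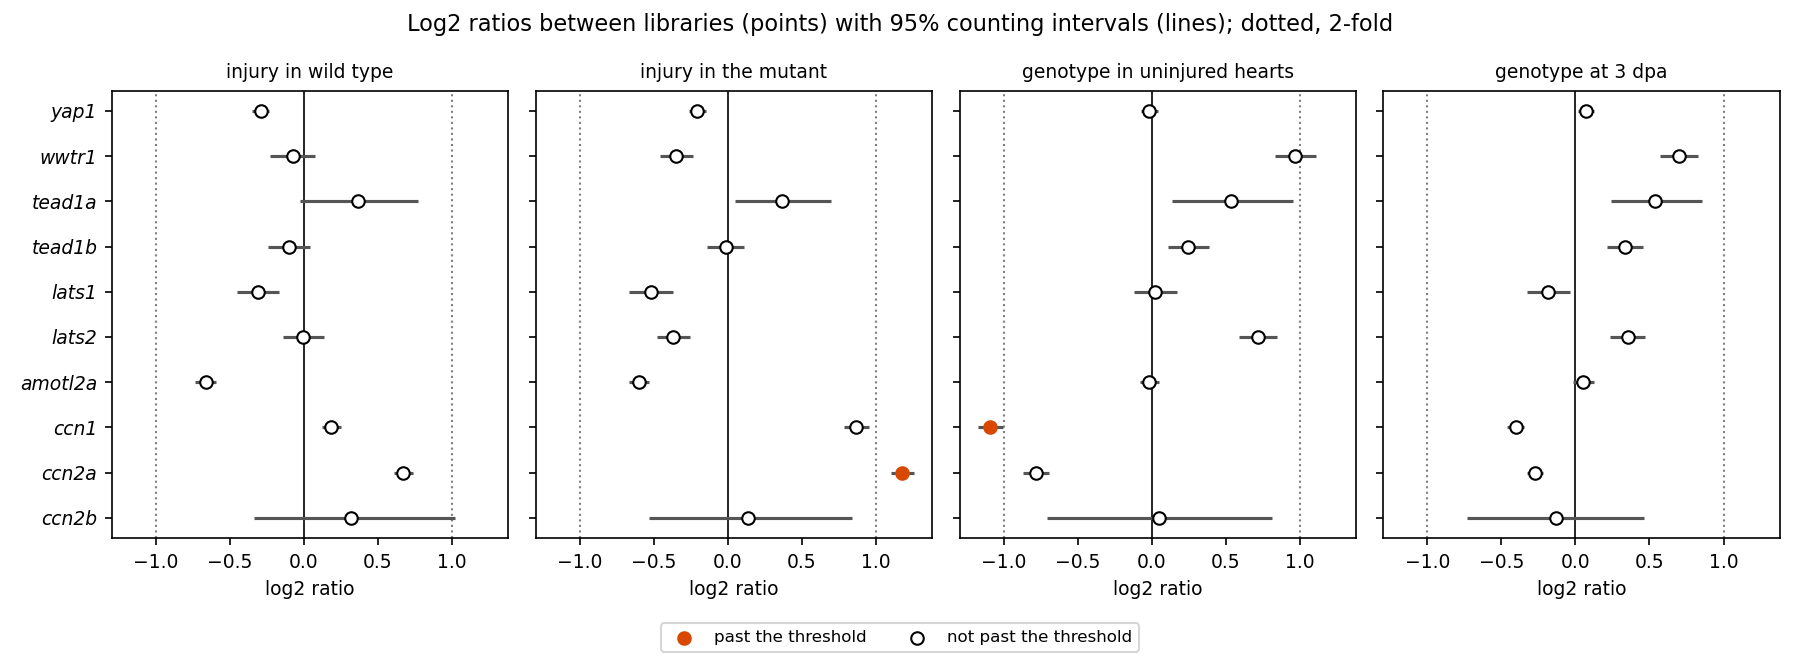
Log2 ratios (x axis) of the 10 genes (rows) in the 4 contrasts between libraries (panels), with injury panels as 3 dpa over uninjured and genotype panels as mutant over wild type; lines are 95% counting intervals and dotted lines mark 2-fold. Filled points passed the threshold, which were ccn2a for injury in the mutant (1.18) and ccn1 for genotype in uninjured hearts (-1.09).

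Shares within pairs of related genes do not depend on the scaling of a library. Of the counts of wwtr1 and yap1 together, wwtr1 took 11.8% in uninjured wild type (Wilson 95% interval, 11 to 12.7%), 20.9% in the uninjured mutant (19.9 to 22%), 13.4% in wild type at 3 dpa (12.6 to 14.3%) and 19.3% in the mutant at 3 dpa (18.4 to 20.3%). Of the counts of lats1 and lats2, lats2 took 49.9% in uninjured wild type (47.4 to 52.4%), 61.8% in the uninjured mutant (59.6 to 63.8%), 55.3% in wild type at 3 dpa (53.0 to 57.5%) and 64.2% in the mutant at 3 dpa (62.1 to 66.2%). For both pairs the mutant libraries lay above the wild-type libraries with no overlap of intervals. Of the counts of ccn1 and ccn2a, ccn1 took 53.7% in uninjured wild type, 48.4% in the uninjured mutant, 45.3% in wild type at 3 dpa and 43.0% in the mutant at 3 dpa, so that this pair separated by injury first. These are shares of reads and not of molecules, since transcript lengths differ.

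The other genes of the pathway were taken from a list of 46 regulator symbols, of which 41 were matched, giving 41 gene IDs, 39 of them tested. Few passed the threshold. For injury, the same 2 genes fell past it in each genotype, with the background at 6.76% downward in wild type and 5.62% in the mutant. They were limd1a (ENSDARG00000110954), an Ajuba-family LIM protein gene, with log2 ratios of -1.05 in wild type and -1.48 in the mutant, and VGLL3 (ENSDARG00000038305), a Tead cofactor gene, with -1.12 and -1.17. Under total counts neither fall passed in wild type, and 1 of the 39 regulators passed downward in the mutant. VGLL3 was at most 2.79 scaled CPM and is named after its values were seen. Under TMM, injury intervals of the 39 lay above 0 for 10 and below it for 16 in wild type. In the mutant they lay above 0 for 7 and below it for 20. The median injury log2 ratios were -0.01 and -0.19, against 0.03 and 0.04 over all tested genes. In the mutant against wild type, 3 of the 39 were higher in uninjured hearts, against 3.92% of all tested genes, and 2 at 3 dpa, against 2.24%.

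The kinase gene taok2b (ENSDARG00000100620) was higher in both states, at 3.86 scaled CPM in wild type and 10.2 in the mutant before injury and 4.02 and 9.60 after it, with log2 ratios of 1.39 (1.09 to 1.73) and 1.25 (0.98 to 1.54). WWC1 (ENSDARG00000076041), the gene of the upstream scaffold Kibra, named after its values were seen, was higher in both as well, at 2.22 and 8.62 scaled CPM and then 2.19 and 5.46, with log2 ratios of 1.93 (1.55 to 2.37) and 1.29 (0.95 to 1.70). STRN (ENSDARG00000100011), which encodes striatin of the phosphatase complex that opposes the Hippo kinases, passed in uninjured hearts (log2 ratio 1.03) and had 0.47 at 3 dpa. Over the 39 regulators the median log2 ratio was 0.22 in uninjured hearts, with 24 intervals above 0 and 6 below, and 0.10 at 3 dpa, with 17 above and 8 below. Over all tested genes these medians were -0.03 and 0.00, while the share of intervals above or below 0 is not given here. Genotype ratios also moved with gene span, as given below, and its part in the regulator medians was not tested. The core kinase gene STK3 and its adaptor genes SAV1, mob1a, mob1ba and mob1bb did not pass in any contrast, with injury log2 ratios of 0.43, -0.14, 0.38, -0.03 and 0.18 in wild type and 0.35, -0.28, 0.55, -0.10 and 0.73 in the mutant. Of the tumour suppressor genes of the NF2 family, nf2b had 0.76 and 0.65 and nf2a -0.01 and 0.25. Of the other Tead genes, both TEAD3 entries lay nearer the threshold for genotype in uninjured hearts, at 0.86 (ENSDARG00000063649) and 0.90 (ENSDARG00000074321). These genes, none of which passed, were picked by role or after their values were seen.

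Beyond the 10 genes, a list of 24 symbols of further YAP/TAZ targets gave 25 gene IDs, 20 of them tested. It was drawn from a human signature without the 10 genes, and the birc5 genes were added. The Yap target amotl2a, with injury log2 ratios of -0.66 in wild type and -0.60 in the mutant, is therefore not counted in it. For injury in wild type 6 of the 20 rose past the threshold and none fell past it, against 13.2% upward over all genes. In the mutant 7 rose past it and none fell past it, against 14.7%. Counting intervals lay above 0 for 10 of the 20 and below it for 6 in each genotype. The share of such intervals over all tested genes is not given here. With upper-quartile factors the mutant count became 6 higher and 1 lower. The medians were 0.34 and 0.25. The largest rise was that of an ANKRD1 entry (ENSDARG00000075263), which encodes a stress-responsive ankyrin repeat protein of muscle. Its count went from 19 to 571 in wild type, a log2 ratio of 4.38 (3.84 to 5.24), and from 39 to 1084 in the mutant, a log2 ratio of 4.30 (3.90 to 4.86). The other ANKRD1 entry (ENSDARG00000076192) had at most 14 counts in a library and was not tested. Both entries named MYOF, which encodes the membrane repair protein myoferlin, rose: ENSDARG00000006112 went from 15.0 to 160.0 scaled CPM in wild type and from 15.5 to 167 in the mutant, and ENSDARG00000017128 from 16.1 to 129.5 and from 12.8 to 138. How reads shared between such copies were counted is not given in the sources used here.

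AXL (ENSDARG00000112045), a receptor tyrosine kinase gene, rose from 12.3 to 43.0 scaled CPM in wild type and from 13.6 to 46.7 in the mutant. The matrix-associated gene ccdc80 (ENSDARG00000000002) rose with log2 ratios of 1.11 (0.995 to 1.24) and 1.30 (1.18 to 1.42). BIRC5 (ENSDARG00000075621), the gene of the mitotic protein survivin, rose with 2.87 and 3.43, and a GADD45A entry (ENSDARG00000104571), which encodes a stress-induced growth arrest protein, rose in the mutant with 1.07 and had 0.49 in wild type. Both are named after their values were seen. Injury ratios of the remaining tested target genes lay between -0.58 and 0.73 in wild type and between -0.92 and 0.88 in the mutant. Marker genes of some other cell types rose past the threshold too. These were 7 of 9 fibroblast genes in each genotype, 8 and 9 of 10 tested leukocyte genes, and 6 and 5 of 8 tested epicardial genes. Of the 4 tested erythrocyte genes, 1 rose past it in wild type and 2 in the mutant. Over all tested genes, the upward shares were 13.2% and 14.7%. Of the 7 tested mural and smooth muscle genes, 2 rose and 1 fell past the threshold in wild type, and 1 rose in the mutant. The summed level of the fibroblast list went from 2172 to 13642 scaled CPM in wild type and from 1737 to 11284 in the mutant, that of the leukocyte list from 128 to 462 and from 124 to 521, and that of the epicardial list from 412 to 1413 and from 421 to 1331. The summed level of the erythrocyte list went from 4055 to 7485 scaled CPM in wild type and from 2794 to 5679 in the mutant. No gene of the fibroblast, leukocyte or epicardial list was at 0 in any library. The part of these cell types in the rise of ccn2a and of the targets that rose was not tested.

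Between the genotypes, 3 of the 20 targets were higher in the mutant in each state, against 3.92% of all tested genes in uninjured hearts and 2.24% at 3 dpa. They were CRIM1 (ENSDARG00000029668), which encodes a transmembrane growth factor regulator, with log2 ratios of 1.502 in uninjured hearts and 1.05 at 3 dpa, RBMS3 (ENSDARG00000044574), which encodes an RNA-binding protein, with 1.67 and 1.07, and DOCK5 (ENSDARG00000001968), which encodes a Rac activator, with 1.28 and 1.35. DOCK5, at most 4.35 scaled CPM, is named after its values were seen. None of the 20 was lower past the threshold in either state, unlike ccn1 in uninjured hearts. The median of the target list was 0.00 in uninjured hearts and 0.09 at 3 dpa.

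**Figure D3:**
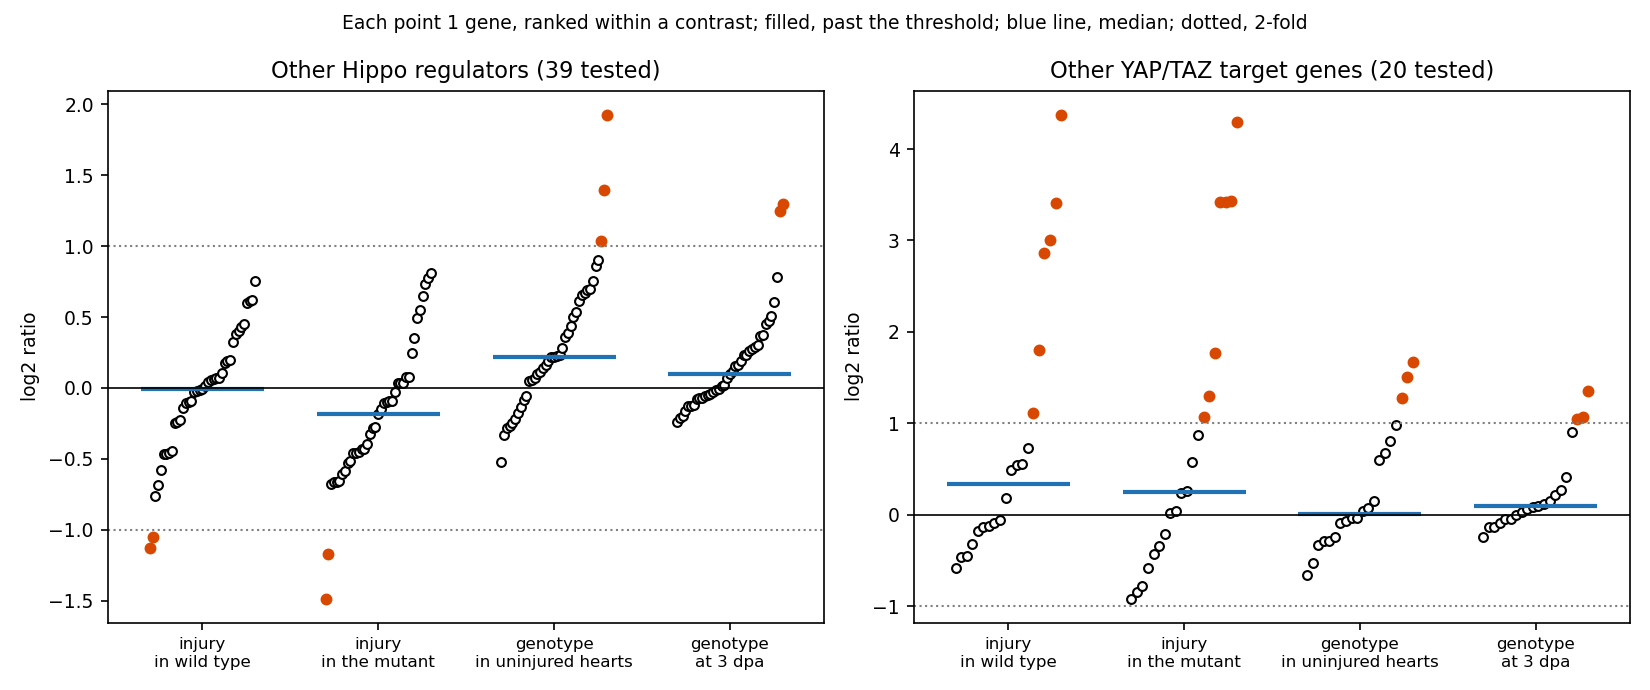
Log2 ratios (y axis) of the 39 tested regulator genes and the 20 tested target genes in the 4 contrasts (x axis), each point 1 gene ranked from low to high within its contrast; filled points passed the threshold, blue lines are medians and dotted lines mark 2-fold. Targets that passed with injury lie from 1.07, close to others at up to 0.88, to 4.38, whereas no regulator exceeds 0.81 with injury.

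Some early response genes, which like ccn1 are transcribed within minutes of stimulation, were also low in the uninjured mutant. This list was added after the data were examined. Of its 18 tested genes, 7 were lower past the threshold in the uninjured mutant, against 4.09% of all tested genes, and 1, KLF4, was higher, while 10 did not pass. Log2 ratios lay below 0 for 17 of the 18, and counting intervals for 14. Over all tested genes the median was -0.03 and 47.1% of ratios lay above 0, while the share of intervals below 0 is not given here. BTG2 (ENSDARG00000020298) had 95.5 scaled CPM in uninjured wild type, 23.6 in the uninjured mutant, 138 in wild type at 3 dpa and 83.7 in the mutant at 3 dpa. In egr1 (ENSDARG00000037421) these levels were 58.3, 19.4, 74.1 and 61.6 scaled CPM, and in FOS (ENSDARG00000031683) 23.8, 6.66, 23.5 and 15.6. The mutant uninjured library was the lowest of the 4 for these 3 genes, as for ccn1, but not for ATF3, NR4A1, FOSL1 or KLF4. The genotype log2 ratios in uninjured hearts were -2.02 for BTG2, -1.82 for FOS, -1.66 for DUSP1, -1.59 for egr1, -1.54 for ier2b and -1.40 and -1.20 for the JUNB entries, and at 3 dpa those of the same 7 genes lay between -0.72 and 0.10. The summed level of the whole list of 22 was 990 scaled CPM in uninjured wild type, 592 in the uninjured mutant, 1080 in wild type at 3 dpa and 874 in the mutant at 3 dpa. Of the cell type lists, 12 of 13 tested hepatocyte genes were lower past the threshold in the uninjured mutant (summed level 2020 against 553 scaled CPM, with 5 of the 14 genes at 0 in the mutant), as was 1 of 4 thrombocyte genes (f5, log2 ratio -1.30). Most of the 553 was RBP4, at 510.5 scaled CPM, the tested hepatocyte gene that did not pass (log2 ratio -0.12). The 4 tested erythrocyte genes had intervals below 0 without passing (summed level of the list 4055 against 2794 scaled CPM), and no gene of the other cell type lists passed there. The part of early response, of liver tissue or of any cell type in the difference of ccn1 and ccn2a was not tested.

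**Figure D4:**
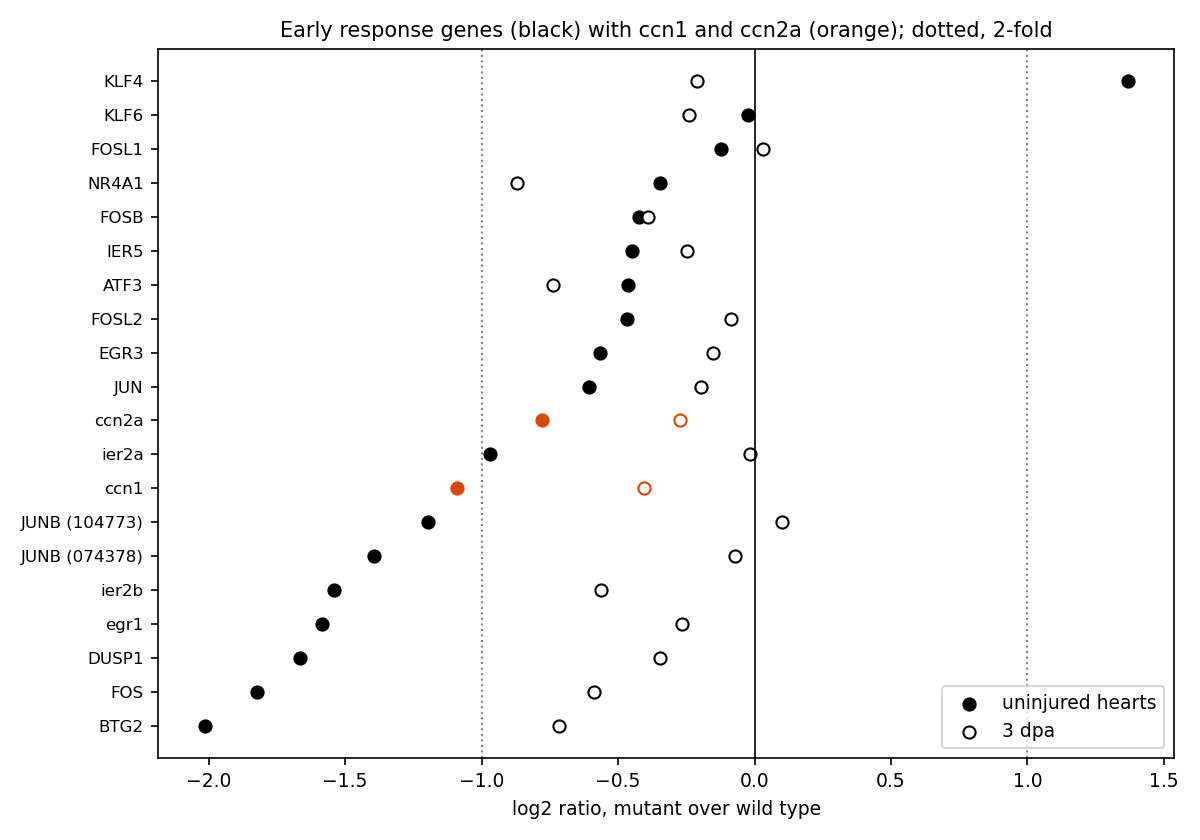
Genotype log2 ratio, mutant over wild type (x axis), of the 18 tested early response genes and of ccn1 and ccn2a (rows, ordered by the uninjured value); filled points compare the uninjured libraries, open points the 3 dpa libraries, and the JUNB entries carry the last digits of their gene ID. Most filled points lie to the left of their open partners, ccn1 (-1.09 and -0.40) and ccn2a (-0.78 and -0.27) among them.

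Genotype ratios also moved with gene span, the genomic length of a gene in the RefSeq list of assembly GRCz12tu. The 13822 tested genes with a known span were put into 10 equal bins by span. In the shortest bin the median log2 ratio, mutant over wild type, was -0.20 in uninjured hearts and -0.10 at 3 dpa. In the longest bin it was 0.20 and 0.13, and 12.7% and 6.58% of those genes passed the threshold upward, against 0.868% and 1.16% in the shortest. In the next longest bin (54.8 to 95.5 kb) it was 0.16 and 0.08, and 7.38% and 4.78% passed upward. The tested regulators, with medians of 0.22 and 0.10, spanned from 9.35 kb (amotl2b) to 449 kb (WWC1), many of them in these longer bins. The genes higher in the mutant were mostly long: wwtr1 spans 74.2 kb, tead1a 79.7 kb, tead1b 165 kb and lats2 24.7 kb, and of the listed genes CRIM1 258 kb, RBMS3 264 kb, DOCK5 175 kb, WWC1 449 kb, STRN 73.4 kb and taok2b 58.1 kb. Of the members lower in the mutant, ccn1 (6.41 kb) and ccn2a (2.68 kb) were short. The longer lats1 (31.8 kb) was also lower, at 3 dpa only (log2 ratio -0.18). The short members amotl2a (9.15 kb) and ccn2b (7.14 kb) had genotype intervals that included 0 in both states. The 7 early response genes lower past the threshold in the uninjured mutant spanned from 1.13 kb (ier2b) to 3.37 kb (DUSP1). All of them lay in the shortest bin, which ends at 4.79 kb. KLF4, which was higher, spans 18.3 kb. IER5 (1.48 kb), JUN (1.86 kb) and ier2a (1.18 kb) lay in the shortest bin too and did not pass there. Set against the median of its own span bin, wwtr1 stood 0.81 higher in uninjured hearts and 0.62 higher at 3 dpa, and lats2 stood 0.74 and 0.35 higher. In the same comparison tead1a stood 0.38 and 0.46 higher and tead1b 0.05 and 0.21 higher. On that scale ccn1 stood at -0.93 and -0.34 and ccn2a at -0.58 and -0.18. In both states wwtr1, lats2, tead1a, ccn1 and ccn2a lay outside the quartiles of their bin, and tead1b and yap1 lay within them. The long gene yap1, of 71.9 kb, stood at -0.17 and -0.01 against its bin. This comparison was chosen after the data were examined, and the part of gene span in the genotype ratios was not tested further.

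**Figure D5:**
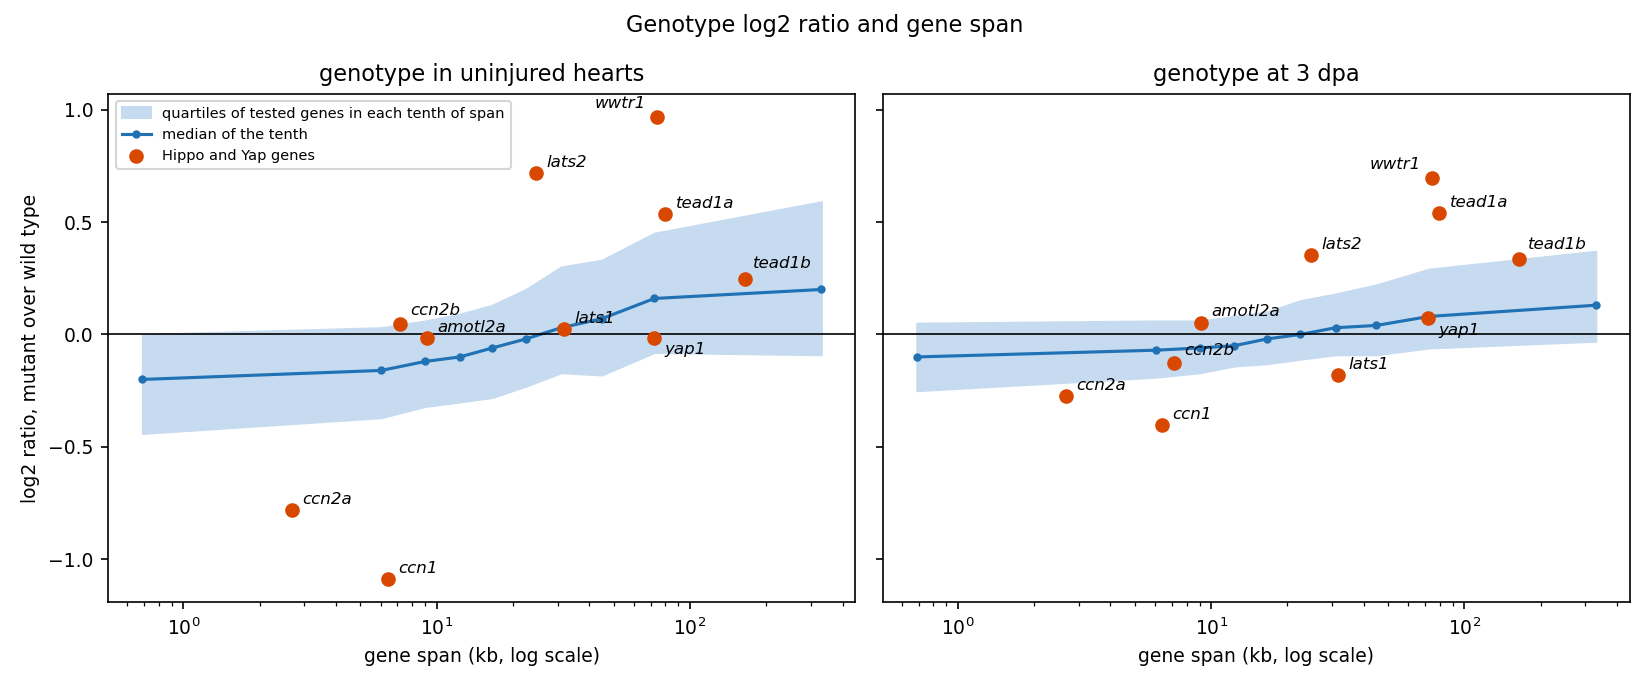
Genotype log2 ratio, mutant over wild type (y axis), against gene span in kb (x axis, log scale) in uninjured hearts and at 3 dpa; orange points are the 10 Hippo and Yap genes, the line joins the medians of 10 equal bins of the tested genes by span and the band their quartiles. The medians go from -0.20 to 0.20 in uninjured hearts and from -0.10 to 0.13 at 3 dpa, with wwtr1 and lats2 above the band and ccn1 and ccn2a below it in both panels.

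The genes nearest to individual members in pattern were found by Euclidean distance between log2 CPM values centred on each gene's mean over the 4 libraries, among named genes of at least 10 scaled CPM in a library. With 4 libraries such likeness is only a description. Nearest to yap1 were RNF103, ARHGAP10 and STAG2, at distances of 0.017 to 0.0282. Nearest to wwtr1 were tspan5b (0.0769), AFF4 (0.0992) and prkar1ab (0.0997). The nearest to ccn1 was GCHFR (0.0853), followed by plvapb (0.222) and si:ch211-59h6.1 (0.232). Nearest to ccn2a were TMOD4 (0.0824), cxcl18b (0.12) and tsc22d3 (0.124). The pattern of ccn2b was nearest to those of hnrnpl2, PTPN4 and SOCS6, at 0.0195 to 0.0239. Of the other CCN genes, a list added after the data were examined, 3 of 6 were tested. CCN4 (ENSDARG00000076685) had the order of ccn2a, at 5.56 scaled CPM in wild type and 2.76 in the mutant before injury and 9.0 and 7.70 after it, and rose with injury past the threshold in the mutant (log2 ratio 1.46, 1.12 to 1.86). The gene ccn1l2 (ENSDARG00000099985) went the other way with injury, from 66.9 to 28.3 scaled CPM in wild type and from 62.0 to 31.1 in the mutant, and its fall passed the threshold in wild type (-1.24, -1.35 to -1.13) and came to -0.99 in the mutant. Over all tested genes, injury took 14.7% past the threshold upward in the mutant and 6.76% downward in wild type. CCN5 (ENSDARG00000077882) passed in no contrast and was highest in the uninjured mutant. Its level was 2.61 scaled CPM in wild type and 4.01 in the mutant before injury, and 3.025 and 3.42 after it. The genotype log2 ratio of CCN5 in uninjured hearts was 0.61 (0.19 to 1.06).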

How the data were processed

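The authors deposited, per the file headers, 1 table for each library with unnormalised counts of reads by Ensembl gene, made from first reads of lane 8. HISAT2, featureCounts and the build GRCz11 are named in the submitters' processing notes, without versions or settings. Annotation release, strand setting and the treatment of reads shared between genes are not given in the sources used here.

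Libraries were scaled by TMM (edgeR 4.0.16, R 4.3.3). Log2 CPM used edgeR's formula with a prior count of 2, and the 16509 genes that reached 1 scaled CPM in any library were tested. Ratios carry exact 95% conditional binomial (Clopper-Pearson) intervals, and differences of injury responses delta-method intervals. No count fell on the floor of 3 counts among the 10 genes. Without molecular identifiers, reads may be PCR copies, and intervals cover counting error only. No group had a replicate, so edgeR's quasi-likelihood test and DESeq2 have no residual degrees of freedom for a single contrast or the interaction. An additive model of genotype and injury, which would take the interaction as error, was not run. Calls were tested on simulated data. The simulation held counting noise only, so it does not cover variation between hearts.

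The members and lists were chosen with earlier results of these data known. The rule for naming list genes was the threshold in a pairwise contrast with at least 10 scaled CPM, and the text says where it names others. Symbols are printed as the name table gives them. At least 80% of the symbols of each list were matched. Gene spans covered 83.7% of tested genes, and where 2 IDs shared a symbol the mean of copies within 2-fold was used. Other steps used Python 3.11.15, scipy 1.17.1, pandas 2.3.3, numpy 2.4.6 and, for plots, matplotlib 3.10.9. Alternatives were median-of-ratios (DESeq2 1.42.0), upper-quartile and total-count scaling, TMM on gene or library subsets, prior counts of 0.5 and 10, filters of none and 5 scaled CPM, and another reference library.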

Additional observations from a re-analysis of the deposited data

How the results depend on the processing

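Of 330 recomputed log2 ratios of the 10 genes, 318 kept their direction and side of the threshold, 4 passed it newly, none reversed a called direction, and the other 8 changed sign without being called. Total counts called 1 regulator (higher) in wild-type injury, 4 (3 higher and 1 lower) in mutant injury, and 2 members in mutant injury. With a prior count of 10, 1 regulator passed for injury in wild type and 565 genes of all tested passed for the difference of injury responses. Without a filter on low counts 5 targets and 968 genes of all passed between the genotypes at 3 dpa, and 1 regulator passed when the injury responses were compared. A filter of 5 scaled CPM left 1 regulator past the threshold for injury in each genotype, and over all genes 2066 and 2190 for injury in wild type and in the mutant, 604 and 216 for genotype in uninjured hearts and at 3 dpa, and 350 for the difference of injury responses, with 12281 genes tested in place of 16509. Wild type at 3 dpa over the uninjured mutant, which changes genotype and injury together and so is no injury contrast, had 3 members past the threshold, a sum of ratios given above. Its ratios are among the 330, and these 3 are among the 4 that passed newly. The other was ccn1 for injury in the mutant under total counts. The cause of the changes other than those of the filters was not tested. No replicate could be left out, and no paired analysis was possible because each group has 1 library and the labels give no replicate numbers. The depth of 31 to 52 counts limits ccn2b, and no interval covers variation between hearts.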
